A study of Mus musculus with 33 samples.

Results

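This comparison sets the chromatin domains of mouse embryonic stem (mES) cells against those of whole hearts from E11.5 mouse embryos. Its members are the 18504 domains of 6 deposited lists, out of 26939 domains in the 9 lists of the series, which also holds E11.5 forebrain. For each source the lists name stretches of the genome as LAD (lamina-associated domain), open or KOD, a label of the depositors whose meaning the sources used here do not give. The 6 lists were painted in 10 kb bins over chromosomes 1 to 19. A change of state was read only where a bin was listed in both sources, which held for 203186 bins or 2032 Mb of a 2401 Mb map (84.6%), and bins in no list are described apart.

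The domains rest on CUT&RUN, in which an antibody guides a nuclease to its target in unfixed cells and the released DNA is sequenced. H3K9me2 (Active Motif antibody) and Lamin B1 (Abcam antibody) were each profiled in 3 libraries per source, beside 6 IgG control libraries in heart and 3 in mES cells. The mES cells were a C57BL/6 line (ATCC SCRC-1002). They were first plated on mitotically inactivated mouse embryonic fibroblasts and then moved to medium with LIF and the inhibitors PD0325901 and CHIR99021 (2i). Hearts came from embryos of wild-type C57BL/6 dams and were pooled, and the 3 replicates were 3 pooled litters or 3 culture vessels. Hearts were dissociated with papain and mES cells with TrypLE. A whole heart mixes muscle, endothelial, endocardial, mesenchymal and blood cells, so a state found in some of its cells and one shared by all of them cannot be told apart. Each list pools the replicates of its source and carries no score. No reads stand behind the values, so depth is unknown, no replicate error and no test can be given, and the only spread below is that over the 19 chromosomes of 1 map. RNA was not measured, and a domain state is not a measure of gene activity.

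The nuclear lamina is a protein mesh of lamins under the inner nuclear membrane. Long, gene-poor and mostly silent stretches of chromatin touch it, and many of them carry H3K9me2, a mark written by the G9a and GLP methyltransferases. When cells leave pluripotency, single genes or gene clusters are known to move away from or towards the lamina. The embryonic heart at mid-gestation already beats, and its muscle cells express sarcomere proteins, ion channels and a core set of transcription factors.

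The promoters of 3 genes described below are shown because each lay in a LAD in mES cells and its gene was open in heart. They run from 250 bases before to 50 bases after the transcript start of the RefSeq promoter table (GRCm38.p6), read 5′ to 3′ on the strand of the gene. For Mef2c that start lies 17 bases inside the outer end of the gene. Capitals mark matches of 3 motifs, searched on both strands. They are TATAAA (reverse complement TTTATA), the GATA-type motif AGATAA (reverse complement TTATCT) and the CArG box, the element that serum response factor binds. Actc1 encodes cardiac actin (chr2:114052826-114053125, minus strand), Mef2c a muscle transcription factor (chr13:83503784-83504083, plus strand) and Hbb-bt an adult beta-globin (chr7:103813874-103814173, minus strand).
Actc1: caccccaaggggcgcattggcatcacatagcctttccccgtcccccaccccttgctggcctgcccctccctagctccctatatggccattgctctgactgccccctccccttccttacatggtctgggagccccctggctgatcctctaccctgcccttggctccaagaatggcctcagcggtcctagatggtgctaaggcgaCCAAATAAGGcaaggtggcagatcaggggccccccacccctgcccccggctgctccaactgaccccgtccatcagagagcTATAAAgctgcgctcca
Mef2c: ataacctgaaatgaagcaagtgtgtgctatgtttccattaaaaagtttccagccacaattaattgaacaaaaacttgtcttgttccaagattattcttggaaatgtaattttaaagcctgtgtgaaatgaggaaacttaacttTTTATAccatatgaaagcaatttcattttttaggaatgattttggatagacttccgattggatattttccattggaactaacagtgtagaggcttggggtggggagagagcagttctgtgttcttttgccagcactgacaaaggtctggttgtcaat
Hbb-bt: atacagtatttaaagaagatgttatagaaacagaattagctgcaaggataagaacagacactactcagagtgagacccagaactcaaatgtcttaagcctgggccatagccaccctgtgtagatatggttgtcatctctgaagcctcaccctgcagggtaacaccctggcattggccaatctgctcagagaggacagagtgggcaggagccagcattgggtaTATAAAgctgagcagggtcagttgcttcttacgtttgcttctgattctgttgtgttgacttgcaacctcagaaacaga
The Actc1 window held 1 TATAAA and 1 CArG box, and the Mef2c and Hbb-bt windows held 1 TATAAA or TTTATA each, and no match overlapped another. Of all 16457 promoters of the reference table on these chromosomes, 13.5% held TATAAA or TTTATA, but the share was 34.6% for genes LAD in both sources and 33.1% for LAD to open genes. Over all promoters 9.85% held AGATAA or TTATCT and 1.45% a CArG box. A match describes the letters and is no evidence of binding. The Actc1 window had 7 CpG and those of Mef2c and Hbb-bt 1 each. The bin with the promoter was LAD in mES cells in all 3 cases, and in heart it was open for Actc1 and Hbb-bt and in no list for Mef2c.

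Of the bins listed in both sources, 369.9 Mb (18.2%) had another state in heart. Most of that was exchange between open and KOD. Open to KOD took 134.9 Mb (36.5% of the changed length) and KOD to open 84.1 Mb (22.7%). KOD to LAD took 50.8 Mb, LAD to open 40.4 Mb, LAD to KOD 35.6 Mb and open to LAD 24 Mb. LAD was the state kept most often. Of the mES LAD length that was listed in heart, 91.8% was LAD there, against 77.4% of open and 66.4% of KOD. The length that left LAD (76 Mb) and the length that entered it (74.8 Mb) were nearly equal.

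**Figure D1:**
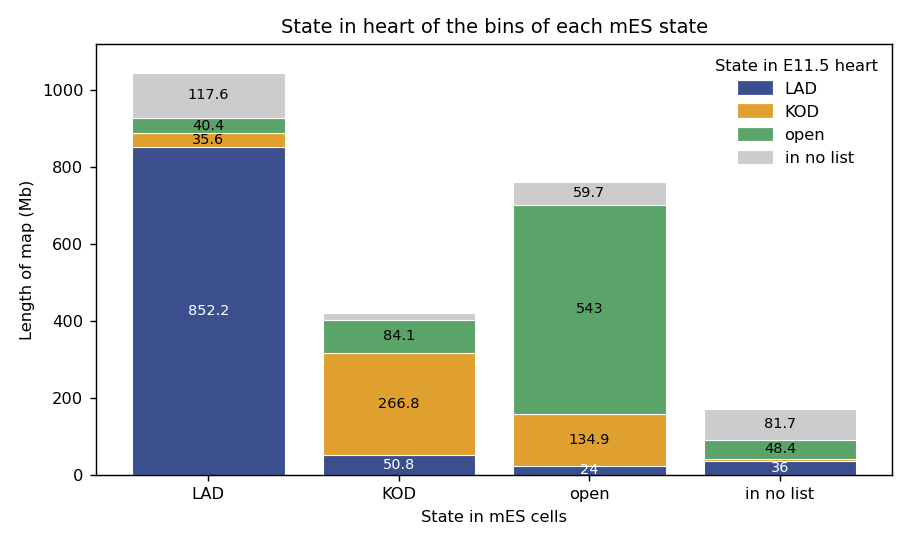
Length of the map in Mb by state in mES cells (bars) and by state in heart (colours), with bins in no list shown in grey. The LAD bar is the tallest and most of it was LAD in heart (852.2 Mb), while the KOD bar has the largest share in other colours.

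The stacked bars of length by mES state show these flows. They also show that more mES LAD length had no heart list (117.6 Mb) than had another heart state.

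The balance between open and KOD was not even along the genome. The changed share per chromosome was lowest on chromosome 3 (10.3%), had a median of 17.8% and was highest on chromosome 19 (28.8%; SD 4.96 points over 19 chromosomes). Open to KOD exceeded KOD to open on 15 of 19 chromosomes, the others being 3, 8, 10 and 12. The ratio of both lengths had a median of 1.41 and ran from 0.461 on chromosome 8 to 10.1 on chromosome 19. Chromosome 11 had 21.1 Mb of open to KOD and 2.89 Mb of KOD to open. On chromosome 19 the lengths were 9.72 and 0.96 Mb. KOD thus covered 22.3% of the bins listed in both on chromosome 11 in mES cells and 41.8% in heart, and on chromosome 19 it covered 22.4% and 45.7%. Chromosomes 7, 11 and 19 had the most protein-coding genes per Mb (14.3, 13.6 and 12.1). KOD did not gain on all of these, since on chromosome 7 its share was 18% in mES cells and 15.6% in heart. Chromosome 12 was at the other end, with 9.56 Mb from KOD to open and 5.51 Mb from open to KOD. Without chromosome 11, the number of bins that were open in mES cells and KOD in heart was 11383 instead of 13494.

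For LAD, more length left than entered on 9 of 19 chromosomes. Chromosome 7 had the most in both directions, with 10.2 Mb leaving and 7.19 Mb entering. Of the length that left LAD on chromosome 7, 8.17 Mb became open. On chromosome 19, 4.38 Mb left LAD and 0.51 Mb entered it, and 4.15 Mb of the former was KOD in heart. These values describe where in the 2 maps the states differ, and without replicates the share that would return in other litters or cultures is unknown.

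**Figure D2:**
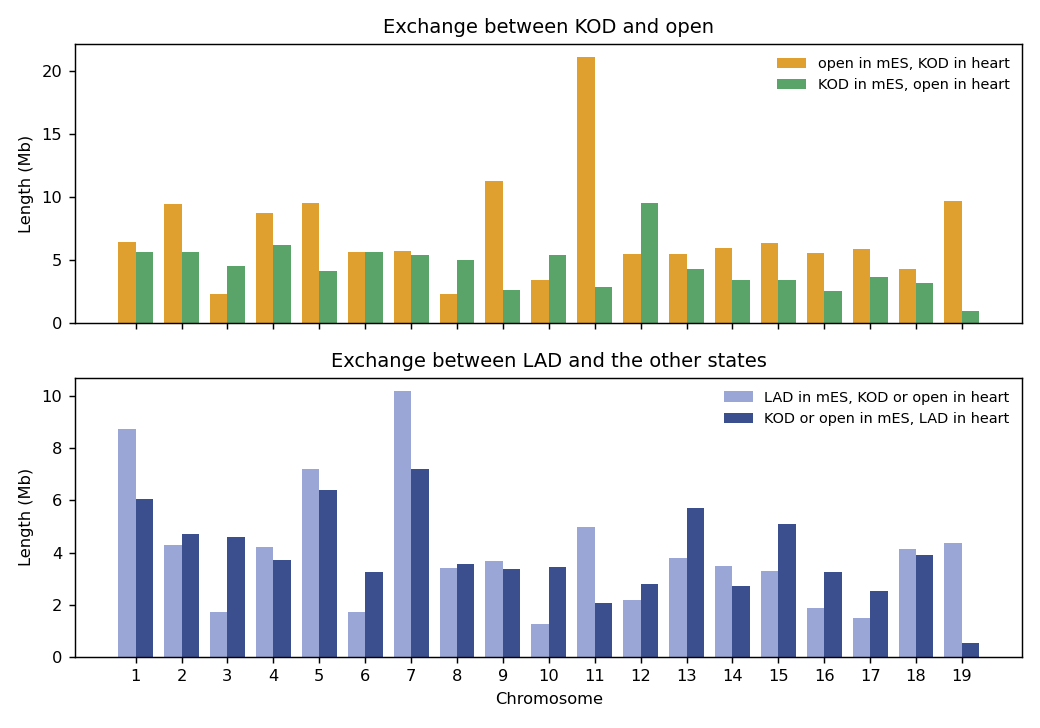
Length in Mb that changed state between mES cells and heart on each of chromosomes 1 to 19, for exchange between open and KOD (upper panel) and between LAD and the other states (lower panel). The open to KOD bar of chromosome 11 (21.1 Mb) is the highest of the upper panel, and the LAD bars of chromosome 7 (10.2 and 7.19 Mb) lead the lower one.

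The plot of changed length by chromosome shows that the bars for leaving and entering LAD were close in height on many chromosomes, while those for open and KOD were farthest apart on chromosomes 9, 11 and 19.

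The changes fell into 6871 regions, each a run of bins with the same change. Their median length was 30 kb and 1914 were a single bin. The 1063 regions of 100 kb or more held 188.9 Mb (51.1% of the changed length), 21 reached 500 kb, and 3 reached 1 Mb. All of those 3 went from LAD to open. The kinds of change sat differently among their neighbours. Of 2407 regions open in mES cells and KOD in heart, 45.1% were shifts of a border between an open domain and a KOD. In 31.3% the neighbouring bins on both sides were open in both sources. Of 1758 KOD to open regions, 34.8% were border shifts, and 22.5% were KODs that vanished into the open domain around them. Of 669 LAD to open regions, 95.8% touched a bin in no list and 4 lay between neighbouring bins that were LAD in both sources. The lists themselves rarely put LAD and open side by side. In heart, 357 borders joined LAD directly to open and 5817 joined LAD to bins in no list, and in mES cells the numbers were 120 and 3201.

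Among the longest regions, those from LAD to open held multi-copy gene families. The longest, chr5:94140001-95780000 (1640 kb), held 22 protein-coding genes, most of them Pramel genes, whose products are leucine-rich repeat proteins of germ cells and early embryos. The next, chr7:20350001-21600000 (1250 kb), held 34 genes, most of them Vmn1r receptors for pheromones. The third, chr5:10880001-11920000 (1040 kb), held Gm5861, Speer1 and Gm6460. The longest LAD to KOD region with a gene was chr1:185710001-186650000 (940 kb). It held Lyplal1, a lysophospholipase-like gene, and reached into Tgfb2. The third of that kind, chr11:65860001-66470000 (610 kb), overlapped Dnah9, a dynein of cilia, and Shisa6. KOD to LAD was led by chr7:137900001-138790000 (890 kb) with Tcerg1l. Open to LAD regions were short, at most 290 kb, and the longest 3 had no gene wholly inside, though the second (chr1:84040001-84270000) overlapped Pid1.

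Open to KOD regions were gene-rich. The longest, chr17:28390001-29000000 (610 kb), held 14 protein-coding genes, among them Fkbp5, a co-chaperone of the glucocorticoid receptor, and Mapk14 and Mapk13, which encode p38 kinases. The second, chr9:69930001-70410000 (480 kb), held Bnip2, Gtf2a2 and Myo1e among its 5 genes. The third, chr19:45810001-46250000 (440 kb), held 7 genes, among them Ldb1, a partner of LIM-domain transcription factors, and Nolc1 and Pitx3. KOD to open was led by chr12:21870001-22550000 (680 kb), with Gm10476 and Gm46340. It was followed by chr16:11340001-11860000 (520 kb), which overlapped Snx29 and Cpped1. The third was chr1:178510001-178970000 (460 kb), which held Kif26b, a kinesin-like gene of kidney and limb development.

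The edges of domains changed more often than their insides. In the outermost 10 kb of mES LADs, 32.1% of the bins listed in both had another state in heart. That share was 21.5% at 10 to 50 kb inside, 12.7% at 50 to 200 kb and 3.48% at more than 200 kb. For KODs the shares were 51.5%, 40.2%, 29.4% and 21.1%. For open domains they were 46.9%, 31.2%, 17.3% and 17.1%, so the deep inside of open domains changed more often than that of LADs. The share of bins in no heart list also declined inwards, from 26.7% to 8.8% in LADs. Domains of all lengths were pooled and short ones have no deep bins, so depth and domain length are mixed in these shares.

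**Figure D3:**
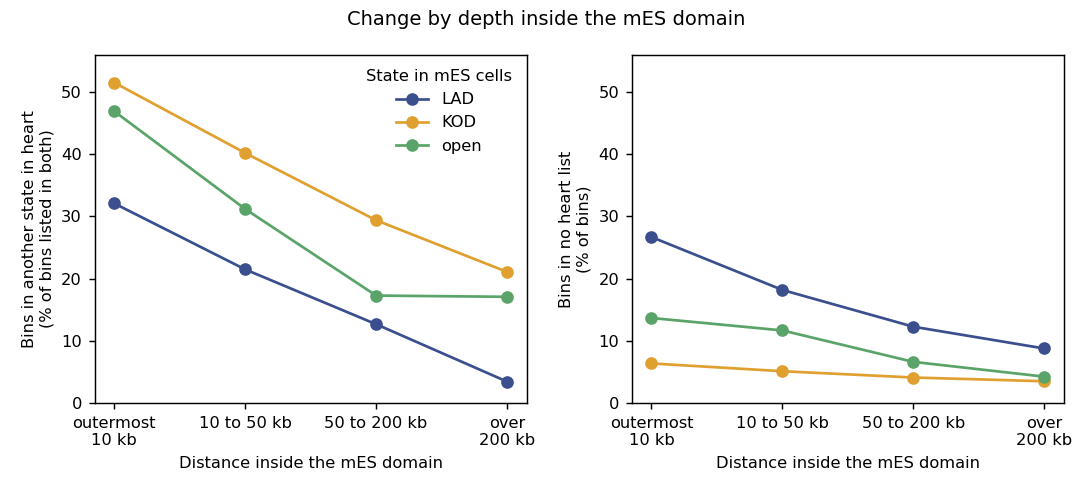
Percent of mES bins that had another state in heart (left, of bins listed in both) and percent in no heart list (right, of all bins) by distance inside the mES domain, for LAD, KOD and open. All 3 lines decline inwards, LAD from 32.1% to 3.48% on the left.

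The lines for change by depth show KOD above the other states at each distance on the left, and LAD above them on the right. The longer a LAD, the larger was its kept share. Of the 1932 mES LADs, 858 (44.4%) were LAD in heart over at least 90% of their length and 439 (22.7%) over none of it. LADs of at most 50 kb were LAD in heart over 50% of their summed length, against 87.8% for LADs of 1 Mb or more. For the 2679 mES KODs, 63.3% of the length was KOD in heart and 1032 (38.5%) had none of it in that state, and for the 3214 open domains 71.3% was open and 746 (23.2%) had none. Of 3864 ends of mES LADs, 448 (11.6%) had a heart LAD end of the same side in the same bin, 34.5% had 1 within 20 kb and 36.6% had none within 100 kb. The nearest heart end lay inside the mES LAD in 1793 cases and outside in 1623.

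Heart LADs were more often interrupted. Of the mES LADs, 561 (29%) overlapped more than 1 heart LAD, and among those of 1 Mb or more this held for 78.6%. Of 3522 heart LADs, 232 (6.59%) overlapped more than 1 mES LAD. The 1447 breaks inside them had a median length of 30 kb, and 1207 (83.4%) were stretches in no heart list. KOD filled 114 breaks and open 4, and 122 were mixed. The most broken mES LAD, chr5:77490001-81610000 (4120 kb), was in 17 pieces in heart, with 81.8% of its length LAD and 18.2% in no list. Another, chr17:17890001-20910000 (3020 kb), was in 14 pieces and held formyl peptide receptor genes and Vmn2r pheromone receptor genes. On chromosome 11, the mES LAD with Kcnj2 and Kcnj16, which encode inward-rectifier potassium channels, was in 13 pieces (chr11:110540001-112700000, 2160 kb). There 35.6% of the length was KOD in heart, 9.72% in no list and 54.6% LAD.

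Bins in no list were more frequent in heart, at 278.4 Mb (11.6% of the map) against 172.2 Mb (7.17%) in mES cells. The heart share was the higher on 18 of 19 chromosomes, all but 19. The 5177 heart gaps had a median length of 30 kb. By mES state, 42.2% of the heart gap length was LAD, 21.5% open, 6.95% KOD and 29.3% in no mES list either. That is 11.2% of mES LAD length, 7.84% of open and 4.6% of KOD. Of the heart gaps, 37.7% lay between LADs and 34.2% between a LAD and an open domain. Read depth and mappability per bin were not given, so their part in this was not tested. When domain ends were trimmed by 20 kb, 17934 mES LAD bins had no heart list instead of 11762.

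Gene content differed between the kinds of change. Counted by gene midpoints, stretches open in both sources had 19.1 protein-coding genes per Mb and open to KOD stretches 14.4. KOD to open stretches had 9.66 and LAD to open 8.4, against 2.81 for LAD in both and 2.33 for LAD to KOD. Promoters differed with them. The median number of CpG in the 300-base RefSeq window was 20 for genes open in both and 18 for open to KOD. It was 12 for KOD to open and 6 for KOD in both. Genes from LAD to open had a median of 2 CpG, as did genes LAD in both, and genes from LAD to KOD had 5. The 73 genes from LAD to KOD were also long, with a median of 64.1 kb and 28.8% over 200 kb, against 4.34% of all genes listed in both.

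A gene was given the state that covered most of its body. Of 17952 protein-coding genes listed in both sources, 3523 (19.6%) had another state in heart. Of these, 1969 went from open to KOD, which is 15.7% of the open genes listed in heart, and 797 from KOD to open, which is 30.6% of the KOD genes. From LAD, 345 genes went to open and 73 to KOD, together 14.8% of LAD genes, and 339 genes, 2.24% of those KOD or open in mES cells, went into LAD. These percentages are the background for the lists below. Gene arrays weighed on the LAD count. Of the 345 LAD to open genes, 129 (37.4%) belonged to the Vmn1r, Vmn2r, Pramel, Defa, Mup and Scgb families, which were chosen after their values were seen and made up 10.6% of the LAD genes listed in heart. A further 99 (28.7%, against 7.99%) had Gm symbols, placeholders for predicted genes that lay on 9 chromosomes. Without chromosome 7, the count of genes leaving LAD was 286 instead of 418.

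In the 3 cardiac lists (contraction, calcium handling and conduction, transcription factors), 29 of 72 genes listed in both had another state in heart (40.3%; background 19.6%). Most of them were open in heart. Of 11 members that were LAD in mES cells and listed in heart, 8 left LAD (background 14.8%), and all 8 were open in heart. With domain ends trimmed by 20 kb, 3 of the 8 (Slc8a1, Cacnb2 and Corin) kept that change, and read at the gene start 4 (Actc1, Slc8a1, Cacnb2 and Isl1) did. Of 24 that were KOD, 14 were open in heart (background 30.6%). In the other direction, 6 of 37 went from open to KOD (background 15.7%) and 1 of 61 into LAD (background 2.24%). The lists were chosen with earlier results of these data known, and some members share a domain, as Myh6 and Myh7 do, so these counts are a description.

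**Figure D4:**
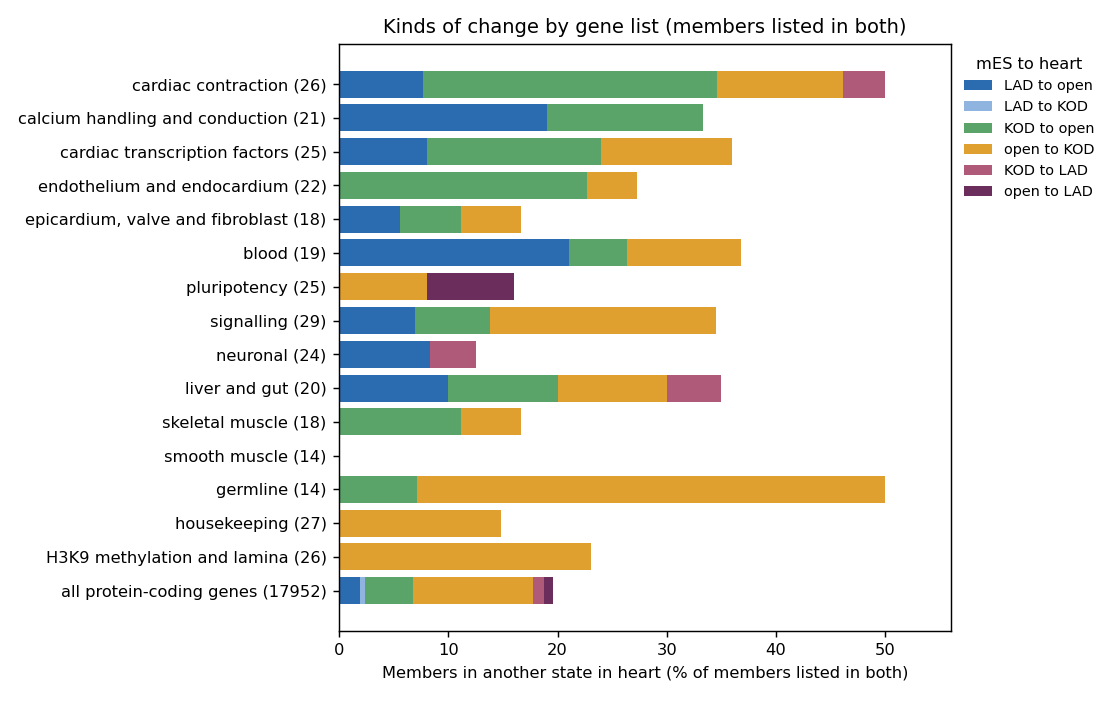
Percent of the members of each of the 15 symbol lists, among those listed in both sources (number in brackets), that had another state in heart, coloured by the kind of change, with all protein-coding genes at the bottom. The bars of cardiac contraction and germline genes are the longest (50%), the first mostly KOD to open and LAD to open, the second mostly open to KOD.

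Among the symbol lists drawn, the bars show the largest LAD to open shares in the blood and conduction lists and the largest KOD to open shares in the contraction and endothelial lists. Open to KOD was largest among germline genes.

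Among contraction genes, 13 of 26 had another state. Actc1, cardiac actin, was LAD in mES cells over 100% of its body, open over 100% in heart and LAD over 100% in forebrain. Its mES LAD was 170 kb long and 58.8% of that was LAD in heart. Nebl, which encodes a nebulin-like protein of the cardiac Z-disc, was LAD over 68.1% of its 392.3 kb in mES cells and open over 42.7% in heart, where a further 40.8% was in no list. Its change was thus partial. Myh6 and Myh7, the alpha and beta myosin heavy chains, lay side by side in a 110 kb KOD in mES cells and in a 150 kb open domain in heart, each over 100% of its body. In forebrain Myh6 was KOD over 69% of its body and Myh7 open over 80.7%. Myl2, the ventricular myosin light chain, went the other way, open over 100% in mES cells and KOD over 100% in heart and in forebrain. Myl4, the atrial light chain, was open over 100% in mES cells and KOD over 66.1% in heart.

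Myom2, an M-band protein, was KOD in mES cells over 100% of its body and LAD over 57.3% in heart, where 29.5% was open. It was the 1 cardiac member that entered LAD. The other contraction genes with a change, named after their values were seen, included Tnnt2, Tnni1, Ttn and Mybpc3 from KOD to open and Tpm1 from open to KOD. Tnnt2 and Tnni1 are neighbours and share their mES KOD. Of the 12 members open in both sources, Myl7, Tnnc1, Actn2 and Des are examples, and Casq2 was KOD in both.

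Of the calcium and conduction genes, 7 of 21 had another state, 4 from LAD and 3 from KOD, and all 7 were open in heart. Slc8a1, the sodium-calcium exchanger, was LAD over 100% of its 365.3 kb in mES cells, open over 100% in heart and LAD over 100% in forebrain. It lay in a 1840 kb mES LAD, of which 22.3% was open, 19.6% KOD and 57.1% LAD in heart. Ryr2, the calcium release channel of the sarcoplasmic reticulum, was LAD over 41% of its 553.8 kb in mES cells, with 34.3% in no list and 24.7% open, and open over 98.2% in heart. Cacnb2, a subunit of L-type calcium channels, was LAD over 100% in mES cells and open over 79.2% in heart. Corin, the protease that activates natriuretic peptide, was LAD over 83.1% and open over 70.7%. In forebrain Ryr2 was LAD over 84.3% of its body, Cacnb2 over 92.5% and Corin over 78.2%.

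From KOD to open went, among others, Cacna1g, a T-type calcium channel, and Hcn4, the pacemaker channel. Their bodies were KOD over 84.9% and 92.1% in mES cells and open over 100% in heart, and in forebrain they were open as well. Not all channel genes differed. Kcnj3, Kcnd2 and Ctnna3 were LAD in both, Cacna1c, Cacna1d, Kcnq1 and Gja5 KOD in both, and Atp2a2, Gja1, Nppa and Nppb open in both. Kcnj2 was LAD in mES cells and in no heart list.

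Of the cardiac transcription factors, 9 of 25 had another state. Isl1, the LIM-homeodomain factor of second heart field progenitors, was LAD in mES cells over 84.8% of its body and open over 100% in heart, in an 80 kb open domain. Mef2c was LAD over 95.7% in mES cells and open over 65.7% in heart, where 34.3% was in no list. In forebrain Isl1 was LAD over 100% and 85.9% of Mef2c was in no list. Of the GATA factors, Gata5 was KOD over 100% in mES cells and open over 100% in heart. Gata4 was open over 83.9% in mES cells and KOD over 71% in heart, and Gata6 was open over 100% and KOD over 100%. Tbx2, a repressor of the chamber programme, was also open over 100% and KOD over 100%. Irx5, Mesp1 and Prdm16, named after their values were seen, went from KOD to open. Nkx2-5, Tbx5, Myocd and Irx3 were KOD in both sources, and 12 members, such as Hand1, Hand2, Tbx20 and Srf, were open in both.

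Of the 8 cardiac genes that left LAD, 7 were LAD in forebrain and Mef2c was in no list there. Over all 345 LAD to open genes, 108 (31.3%) were LAD in forebrain and 179 (51.9%) open. Leaving out the 6 families named above, 101 of 216 (46.8%) were LAD in forebrain, and without Gm symbols as well 67 of 117 (57.3%). The forebrain map is set against the same mES map, so these states are given as values and not as a second comparison.

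Blood genes had 4 LAD to open changes, all at 1 locus. The embryonic globin genes Hbb-y and Hbb-bh1 and the adult ones Hbb-bs and Hbb-bt were each LAD over 100% of the body in mES cells, open over 100% in heart and LAD over 100% in forebrain. They shared a 90 kb open domain (chr7:103810001-103900000) inside a 1640 kb mES LAD that was LAD over 84.8% and open over 5.49% of its length in heart. Heart LAD was 40 kb away on one side and 70 kb on the other. The alpha-globin genes Hba-a1, Hba-a2 and Hba-x were open in both sources. Itga2b, an integrin of megakaryocytes, and Kit, the stem cell factor receptor, were open over 100% and 79.5% in mES cells and KOD over 59.6% and 81.6% in heart. Csf1r, the macrophage growth factor receptor, was KOD over 56.4% and open over 100%. The leukocyte gene Ptprc and the macrophage gene Adgre1 were LAD in both.

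**Figure D5:**
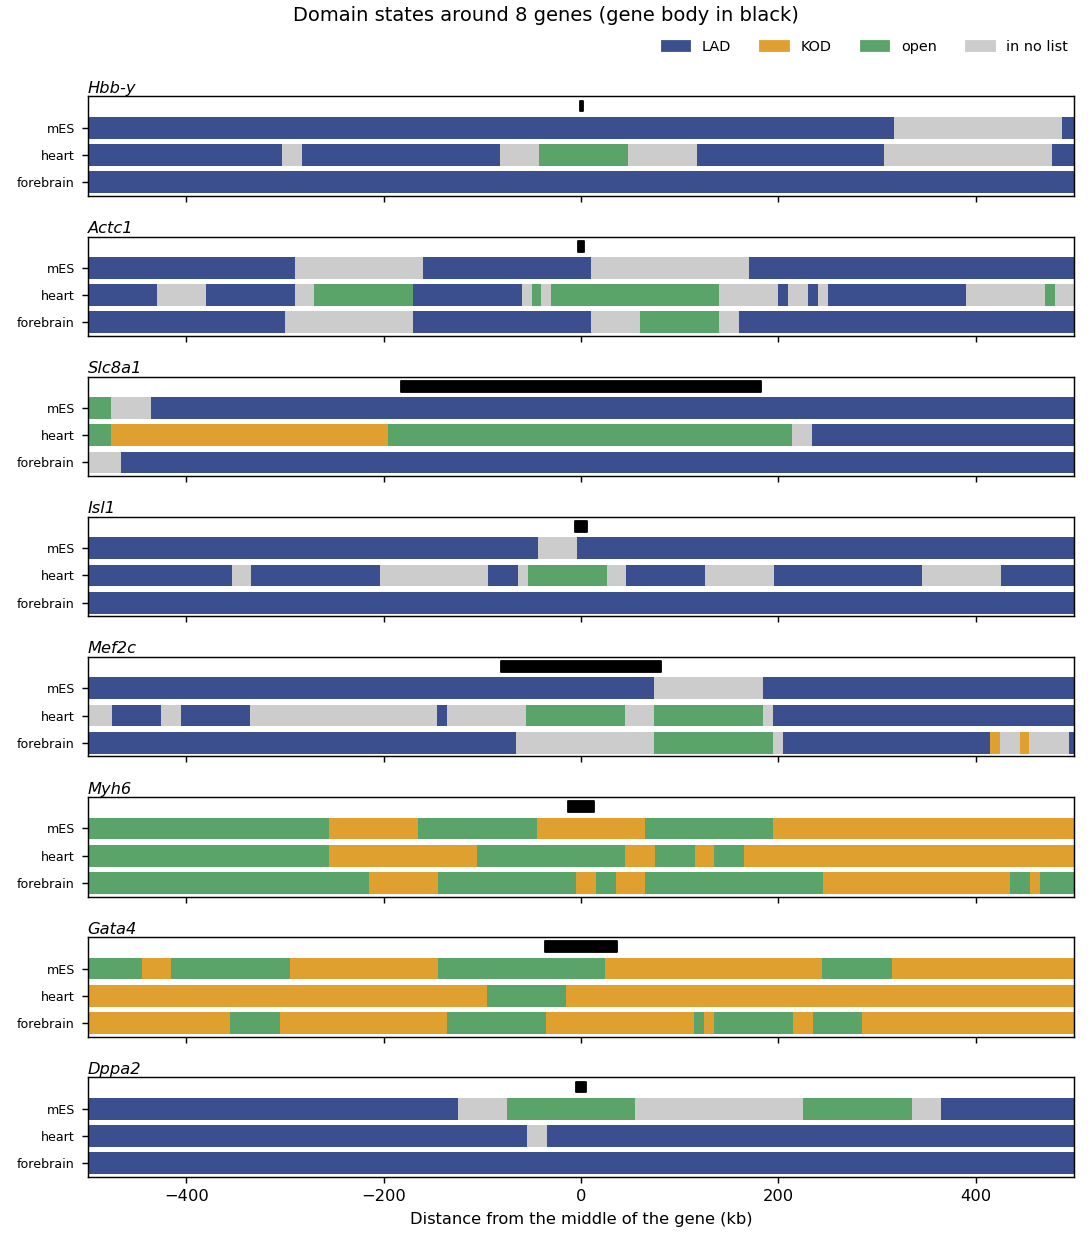
Domain states in mES cells, heart and forebrain within 500 kb of the middle of 8 genes, coloured by state, with the gene body in black and distance in kb. At Hbb-y a 90 kb open domain in heart lies within LAD, at Slc8a1 the open domain covers the whole gene, and at Dppa2 an open domain of mES cells lies where heart and forebrain are LAD.

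The maps of single loci show how narrow some of these changes were. The heart open domains at Hbb-y and Isl1 were flanked on both sides by bins in no list and then by LAD. Those at Actc1 and Mef2c were too on one side, and on the other a further open stretch lay between them and LAD. The kept part of the surrounding mES LAD differed between loci. It was LAD in heart over 71.2% for Nebl, 65.6% for Mef2c, 58.6% for Ryr2, 48.8% for Isl1 and 31.2% for Cacnb2. For Corin, in a 180 kb LAD, none was LAD in heart and 66.7% was open.

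Endothelial and endocardial genes differed mainly from KOD to open, in 5 of the 9 KOD members listed in heart. Flt1, a VEGF receptor, was KOD over 82.8% in mES cells and open over 100% in heart. Tie1, an endothelial receptor kinase, and Fli1, an ETS transcription factor, were KOD over 100% and 97.2% and open over 100%. Ets1 and Postn, named after their values were seen, did the same. Pecam1, an endothelial adhesion molecule, was open over 100% in mES cells and KOD over 100% in heart. In forebrain Tie1, Fli1, Ets1 and Postn were open over 100% as well, Flt1 was KOD over 54.6% and Pecam1 KOD over 100%. Over all 797 KOD to open genes, 641 (80.4%) were open in forebrain. In total 6 of 22 members had another state, and Kdr, Erg, Sox7 and Npr3 were KOD in both.

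For the epicardium, valves and fibroblasts, 3 of 18 genes had another state (16.7%), near the background of 19.6%. Col3a1, a fibrillar collagen, was LAD in mES cells over 77.8% of its body, open over 100% in heart and LAD over 100% in forebrain. Its mES LAD was only 30 kb long. Pdgfrb, the receptor of pericytes and mesenchyme, was KOD over 62.8% and open over 100%. Tgfb2, a ligand in valve formation, was open over 57.2% and KOD over 54.3%, so its call rests on small majorities. None of 14 smooth muscle genes had another state, and 3 of 18 skeletal muscle genes did. Of these, Myod1 and Pax7, which specify skeletal muscle, were KOD over 100% and 75.6% in mES cells and open over 100% and 55.5% in heart. Chrna1, a receptor subunit of the neuromuscular junction, was open over 100% and KOD over 100%.

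Pluripotency genes kept their state about as often as all genes did. Of 25 listed in both, 4 differed (16%; background 19.6%). Dppa2 and Dppa4, neighbouring genes for DNA-binding proteins of pluripotent and germ cells, were open over 100% of their bodies in mES cells and LAD over 100% in heart and forebrain. They shared a 130 kb open domain in mES cells (chr16:48240001-48370000), of which 84.6% was LAD and 15.4% in no list in heart, and the heart LAD was 610 kb long. They are 2 of 25 members against a background of 2.24%, at 1 locus. Lin28a, an RNA-binding protein that blocks let-7 maturation, and Tdh, threonine dehydrogenase, were open over 100% in mES cells and KOD over 100% in heart. The 19 members open in both included Pou5f1, Nanog and Sox2, and Klf4 and Esrrb were KOD in both. The mES call of Esrrb was nearly a tie, with 50.2% of its body KOD and 49.8% open, against 87.5% KOD in heart. Zfp42, Dppa3 and Gdf3 were open in mES cells and in no heart list.

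Signalling genes differed in 10 of 29 cases. Bmp5, a ligand of the bone morphogenetic protein family, was LAD over 88.3% in mES cells, open over 83.7% in heart and LAD over 100% in forebrain. Erbb4, the neuregulin receptor of heart muscle, was LAD over 97.3% of its 1077 kb and open over 61.2% in heart, where 18.4% was LAD. In forebrain it was LAD over 67.6%. A further 6 went from open to KOD, among them Bmp4 (100% to 90.6% of the body), its receptor Bmpr2 (100% to 66.5%) and the growth factor Fgf9 (93.2% to 100%). Fgfr2 was KOD over 61.7% in mES cells and open over 64% in heart. Nrg1, the ligand of Erbb4, was LAD in both sources.

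Genes of tissues that a heart does not form were read in the same way. Of 24 neuronal genes, 3 differed (12.5%; background 19.6%). Of the 16 that were LAD in mES cells and listed in heart, 14 were LAD in heart and 2 left LAD, near the background of 14.8%. Epha7, an ephrin receptor, was LAD over 63.1% in mES cells and open over 88.7% in heart, and it was open in forebrain too. Pcdh7, a protocadherin, was LAD over 87.1%, open over 96.8% in heart and LAD over 75.1% in forebrain. Grin2b, an NMDA receptor subunit, was KOD over 97.8% and LAD over 100%. Liver and gut genes differed in 7 of 20 cases (35%), not far from the 40.3% of the cardiac lists. Alb and Afp, albumin and alpha-fetoprotein, were LAD over 100% in mES cells and in forebrain and open over 100% in heart, in a 60 kb open domain. They were the only members of that list LAD in mES cells and listed in heart. Apob, the apolipoprotein of low-density lipoprotein, was KOD over 100% and LAD over 100%. Serpina1a and Fabp1 went from KOD to open and Ahsg from open to KOD, each over 100% of the body in both sources.

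Exchange between open and KOD reached genes used in every cell. Of 27 housekeeping genes, all were open in mES cells and 4 were KOD in heart (14.8%, against 15.7% of all open genes). These were Polr2a, the largest subunit of RNA polymerase II, Ywhaz, Tuba1b and Hnrnpk, each KOD over 100% of its body. Of 26 genes for H3K9 methylation and the lamina, 6 were KOD in heart (23.1%). Kdm1a, a lysine demethylase, Cbx3, a heterochromatin protein, and Lemd2, an inner membrane protein, were KOD over 100%. Lbr, the lamin B receptor, was KOD over 91.1%. The genes for the lamins themselves and for Ehmt1 and Ehmt2, which write H3K9me2, were open in both. Of the 12 germline genes open in mES cells and listed in heart, 6 were KOD in heart, among them Sycp1 (51% of the body), Piwil2 (73.8%) and Zp3 (100%). Ddx4, an RNA helicase of germ cells, went the other way, from KOD to open over 100% of its body. Of 74 ribosomal protein genes 15 differed, all from open to KOD, and 71 of the family were open in mES cells. Of 248 Zfp genes open in mES cells and listed in heart, 57 were KOD in heart. The background for these counts, and for the germline and keratin genes, is the 15.7% of all open genes given above. Of 17 keratin genes that were open in mES cells, 14 were KOD in heart.

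miRNA genes with known roles in heart, blood or stem cells were read in the same way, from a list written after the files had been seen. Of 46 names 43 matched the RefSeq table, 35 hairpins were listed in both sources and 12 of these differed (background 22.6% of 822 hairpins). The mature sequences of those that differed are shown with the seed, bases 2 to 8, in capitals, because the seed sets which messages a miRNA pairs with. Mir208a and Mir208b sit in introns of the myosin heavy chain genes, share 1 seed and lay in the same 110 kb KOD in mES cells and 150 kb open domain in heart as Myh6 and Myh7. The endothelial Mir126a likewise went from KOD to open. Mirlet7b and Mirlet7c-2, neighbours on chromosome 15, went from KOD to open, and Mirlet7c-1 on chromosome 16 from LAD to open, all of them with the let-7 seed.
miR-208a-3p: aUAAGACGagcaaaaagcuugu
miR-208b-3p: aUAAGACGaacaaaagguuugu
miR-126a-3p: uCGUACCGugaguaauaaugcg
let-7b-5p: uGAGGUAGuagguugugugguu
let-7c-5p: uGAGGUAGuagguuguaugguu
Mir199a-2 and Mir214, a pair of hairpins expressed together in mesenchyme, were LAD in a 470 kb domain in mES cells, open in a 130 kb domain in heart and LAD in forebrain. Mir21a, found in many tissues, the red cell pair Mir144 and Mir451a and the neural Mir9-1 were open in mES cells and KOD in heart and in forebrain.
miR-199a-5p: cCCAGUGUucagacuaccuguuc
miR-199a-3p: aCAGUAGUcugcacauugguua
miR-214-3p: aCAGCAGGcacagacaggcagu
miR-21a-5p: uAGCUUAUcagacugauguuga
miR-144-3p: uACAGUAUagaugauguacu
miR-451a: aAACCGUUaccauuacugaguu
miR-9-5p: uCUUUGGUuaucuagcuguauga
The stem cell hairpins of the Mir290 and Mir302 clusters were open in both sources. Most let-7 hairpins listed in both did not differ. Mirlet7a-1, Mirlet7d, Mirlet7f-1, Mirlet7g and Mirlet7i were open in both and Mirlet7a-2 KOD in both. Of the muscle hairpins, Mir499 was open in both and Mir206 LAD in both. Mature let-7c arises from 2 loci here, so the sequence alone does not tell which of them a cell uses. The same holds for miR-199a, which also arises from Mir199a-1, and for miR-9-5p, which also arises from Mir9-2 and Mir9-3. Mir199b gives a 3p sequence identical to that of miR-199a-3p. Mir199a-1, Mir199b and Mir9-3 were open in both sources, and Mir9-2 was in no mES list and open in heart.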

How the data were processed

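H3K9me2, Lamin B1 and IgG were profiled by CUT&RUN in mES cells and E11.5 heart. Per the submitters' processing notes, reads were handled with Bowtie2 2.5.0, cutadapt 4.2, Trim Galore, deepTools and Picard on mm10. The calling of domains was not given in the sources used here. The lists deposited by the authors give chromosome, start and end only, in whole 10 kb bins, with replicates pooled, so their values are positions with no score. Signal tracks were not analysed here.

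Bins were painted over chromosomes 1 to 19 with Python 3.11.15, numpy 2.4.6 and pandas 2.3.3, and figures drawn with matplotlib 3.10.9. No bin stood in 2 lists of a source. The counting of changes and of the bases of a gene in each state was tested on simulated data, and the painting of the lists was not. Genes (20665 protein-coding), miRNAs and promoters came from RefSeq tables of GRCm38.p6, the assembly behind mm10. A gene took the state, or no list, that covered most of its body, with ties going to the first in the order no list, LAD, KOD, open. Strand was known for the 16457 genes of the promoter table, and of 382 list entries 12 were unmatched.

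The gene lists (15 of symbols, 14 of name patterns), the rule for named genes and the alternatives were chosen with earlier results of these data known, and the miRNA list and the array families were added after the files had been seen. Named genes are list members with a change, in list order. LAD changes come first, all of them for the cardiac, endothelial, epicardial, blood and pluripotency lists and at most 4 for the others, then at most 4 exchanges of KOD and open per list. Values of some genes that the rule names are not reported here. Regions named are the longest 3 of each kind of change. Alternatives were domain ends trimmed by 20 kb, domains under 100 kb left out, gaps of up to 20 kb filled, bins listed in all 3 sources, each chromosome left out, and the state at the midpoint, over 50% of the body or the start of a gene.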

Additional observations from a re-analysis of the deposited data

How the results depend on the processing

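Trimming 20 kb from each domain end lowered most counts by over 1.5 times. Changed bins were 18351 instead of 36987 (11.8% of bins listed in both instead of 18.2%), bins leaving LAD 4406 instead of 7600, bins entering LAD 3535 instead of 7480, open to KOD bins 6661 instead of 13494 and KOD to open bins 3749 instead of 8413. Changed genes were 1709, genes leaving LAD 248, genes entering LAD 133, open to KOD genes 983 and KOD to open genes 345, and switched regions of 100 kb or more 558 instead of 1063. mES LAD bins in no heart list were 17934 instead of 11762. With domains under 100 kb left out, bins entering LAD were 4470, KOD to open bins 5539, genes entering LAD 206, KOD to open genes 529 and mES LADs broken in heart 367 instead of 561. Both alternatives remove bins by construction. The other 297 of 314 settings stayed within 1.5 times. They include all settings with gaps filled, bins listed in all 3 sources, other gene rules or 1 chromosome left out. Of 89 changed list members, 44 kept their change with trimmed ends, 62 without short domains, 89 with gaps filled, 84 at the midpoint and 87 with a state over 50% of the body, and 43 of 64 with a known start kept it there. No paired analysis was possible because each list pools the replicates of its source, and for the same reason no replicate could be left out. Depth is unknown, so small domains cannot be weighed by their reads.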

Other observations

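Parts of other gene clusters, chosen after their values were seen, changed as blocks. Among genes LAD in mES cells and listed in heart, 68 of 161 Vmn1r and 14 of 81 Vmn2r pheromone receptor genes were open in heart, all of them on chromosome 7 and all open in forebrain too. The other listed ones, 93 Vmn1r and 67 Vmn2r genes, stayed LAD. Over all genes LAD in mES cells and listed in heart, 345 of 2815 were open in heart. A further 34 Vmn1r and 30 Vmn2r genes were in no heart list. All 15 Defa genes (alpha-defensins of the gut, on chromosome 8) that were listed in heart were open there, and 13 were in no heart list. Of the Mup genes, major urinary proteins on chromosome 4, 7 of 8 listed were open in heart and 2 were unlisted. Of the secretoglobin (Scgb) genes, 6 of 9 listed were open, but 24 of 33 had no heart list. For comparison, 585 of 3400 LAD genes (17.2%) were in no heart list. In forebrain the changed Defa genes were in no list, the Mup genes LAD and the Scgb genes open. Near-identical copies can share reads, and the part of mapping in these states was not tested.

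Among genes KOD in mES cells and listed in heart, 15 of 20 kallikrein genes (Klk, secreted proteases) on chromosome 7 were LAD in heart, of which 12 were open and 3 KOD in forebrain. All 9 carboxylesterase (Ces) genes that were KOD in mES cells, on chromosome 8, were LAD in heart, as were 9 of 13 listed Serpina protease inhibitor genes on chromosome 12 and all 5 KOD Gbp genes (interferon-induced GTPases) on chromosome 5. In the Fbxw family, 12 of 15 were LAD in heart, 11 of them on chromosome 9. From open to LAD went 7 of 11 listed trace amine receptor (Taar) genes on chromosome 10 and 4 of 4 pregnancy-specific glycoprotein (Psg) genes on chromosome 7. Over all genes listed in heart, 188 of 2603 that were KOD in mES cells and 151 of 12534 that were open went into LAD, together 2.24%. The clustered protocadherins on chromosome 18 were all open in mES cells, and in heart 11 of the Pcdha group were LAD and 20 of the 57 in no list. In forebrain those 11 were open. Of 313 Zfp genes open in mES cells, 65 (20.8%) were in no heart list, 24 of them on chromosome 13, against 600 of 13134 open genes (4.57%).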
